A study of Oryza sativa Japonica Group with 5 samples.

Results

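The genes described here encode enzymes of carotenoid synthesis and of the xanthophyll cycle in rice (Oryza sativa, Japonica Group). They are 10 loci taken by identifier from the 36475 loci of the deposited tables: the phytoene synthases PSY1 (Os06g0729000), PSY2 (Os12g0626400) and PSY3 (Os09g0555500), the desaturases PDS (Os03g0184000) and ZDS (Os07g0204900), the lycopene cyclases LCYb (Os02g0190600) and LCYe (Os01g0581300), the beta-carotene hydroxylase BCH1 (Os04g0578400), zeaxanthin epoxidase, ZEP (Os04g0448900), and violaxanthin de-epoxidase, VDE (Os04g0379700). All 10 were listed in every library and all 10 passed the filter on low values, which kept loci that reached an FPKM of 1 in 2 or more libraries. FPKM are fragments scaled by gene length and sequencing depth, so levels of different genes can be set side by side.

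Leaf RNA came from wild type plants (3 libraries) and from the mutant pls4 (2 libraries), which the series describes as affected in susceptibility to sheath blight, a fungal disease. The labels give the treatment of pls4 as knockdown and that of wild type as non knockdown, and name mesophyll as the cell type. They name neither the altered gene, whose level is therefore not reported, nor the age of the plants, the growth conditions, an inoculation, or whether replicates were separate plants. The p-values thus reflect only how much these libraries vary, and some of that variation may be technical. The FPKM of a library summed to between 736527 and 758853, and between 18393 and 18538 loci reached an FPKM of 1. Read depth is unknown.

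Carotenoids are made in plastids. Phytoene synthase joins geranylgeranyl diphosphate into phytoene, the committed step, and desaturases and isomerases turn phytoene into lycopene. The cyclases then split the pathway into a branch toward lutein, which needs LCYe and LCYb, and a branch toward beta-carotene and zeaxanthin, which needs LCYb alone. In leaves these pigments bind to the light-harvesting complexes, and in strong light VDE turns violaxanthin into zeaxanthin, which helps to dissipate excess light energy; ZEP runs the reverse reaction and also leads to the precursors of abscisic acid.

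PSY1 had the largest change of the 10 genes and was lower in pls4. It stood at 204, 228 and 203 FPKM in the wild type libraries and at 77.5 and 58.5 in the pls4 libraries. Both pls4 values lay far below all wild type values, and the wild type mean of 212 ± 14 (SD, n = 3) was 3.11 times the pls4 mean of 68.0 ± 13.4 (SD, n = 2). The log2 fold change was -1.64 ± 0.13 (SE; limma, adjusted p = 6.35e-05), on the log2(FPKM + 1) scale used throughout, with pls4 minus wild type as the direction. Of all tested loci, 3.69% had a lower fold change. The call held under all 13 alternatives tried, with fold changes between -1.84 and -1.44.

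Of the 10 genes, 4 were called lower (PSY1, ZDS, ZEP and VDE), 1 was called higher (BCH1) and 5 did not pass (limma with Benjamini-Hochberg adjustment over all loci, adjusted p under 0.05). Among the 19637 tested loci 52.0% were called, 18.5% lower and 33.4% higher, so the share of these genes that was called is close to that of all loci. Of all calls 64.3% were higher, and 46.2% were under median ratio scaling. The libraries of the groups did not overlap for 6 of the 10 genes, against 69.9% of all tested loci. The median fold change of the 10 genes was -0.14, while that of all tested loci was 0.15. Relative to that overall median, PSY1 stood at -1.79, VDE at -0.65, ZDS at -0.45, ZEP at -0.38 and BCH1 at 0.21. Without wild type replicate 2, wild type replicate 3 or pls4 replicate 2 the number called lower was 2, namely PSY1 and VDE. With the replicate number as a block it was also 2. Over all loci the number called lower was 3139 without wild type replicate 2 and 3028 without wild type replicate 3. It was 2881 with the block, against 3642 with all libraries and no block. Whichever single library was left out, none of the 10 genes was called higher by limma.

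**Figure D1:**
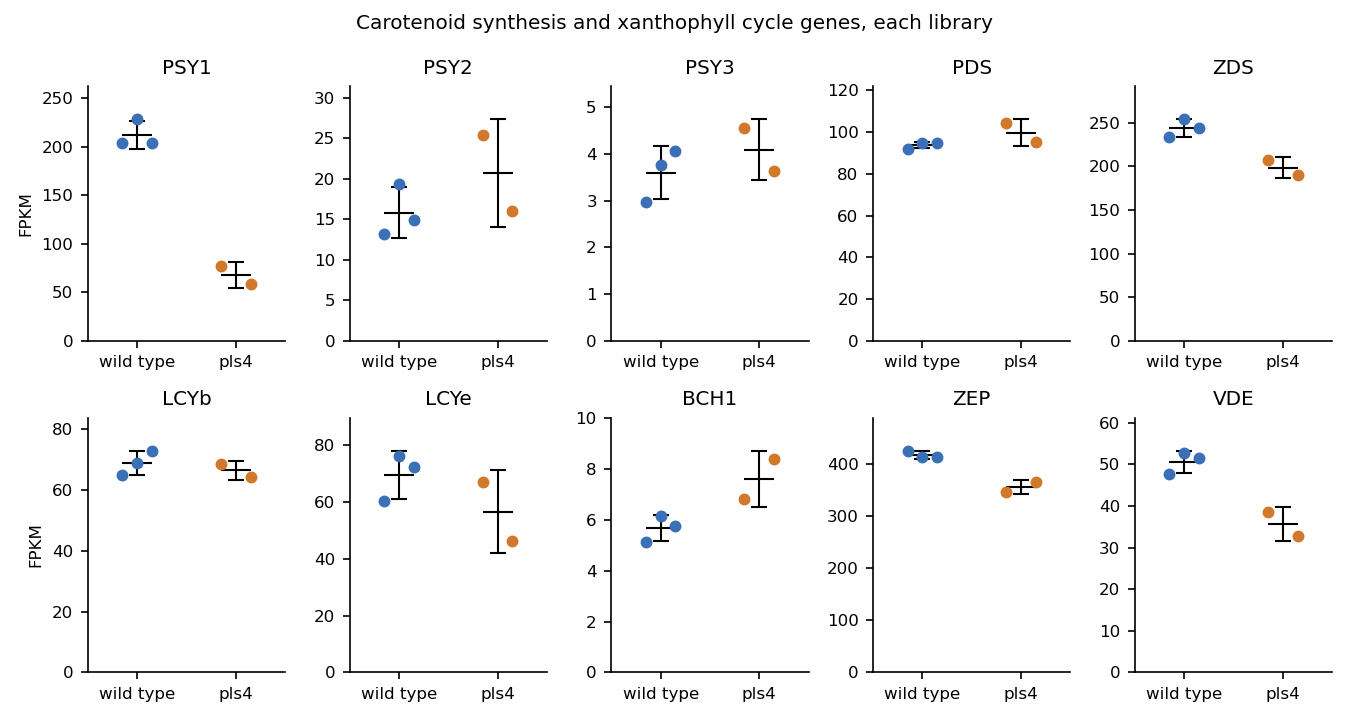
FPKM (vertical axes, each from 0) of the 10 genes in each wild type library (blue, n = 3) and each pls4 library (orange, n = 2), with the mean and SD in black. PSY1 falls from 203 FPKM or more to 77.5 or less, VDE and ZDS lie lower in both pls4 libraries, and the groups overlap for PSY2, PSY3, LCYb and LCYe.

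The other phytoene synthases did not follow PSY1. PSY2 stood at 13.2, 19.4 and 14.9 FPKM in wild type and at 25.4 and 16.0 in pls4, so the groups overlapped, and pls4 replicate 1 was the highest of the 5 libraries. Its log2 fold change was 0.35 ± 0.21 (SE; limma, adjusted p = 0.210; 95% confidence interval -0.16 to 0.86), and it was 0.67 without pls4 replicate 2 and 0.034 without pls4 replicate 1, in neither case past the threshold. PSY3, known from rice roots for a role in stress-induced abscisic acid formation, was the lowest of the 10 genes, at 2.97, 3.77 and 4.06 FPKM in wild type and 4.55 and 3.63 in pls4. Its fold change was 0.15 ± 0.15 (SE; 95% confidence interval -0.20 to 0.50), also not called.

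Phytoene synthase transcripts therefore had another composition in pls4. The summed FPKM of the 3 genes was 220, 251 and 222 in the wild type libraries and 107 and 78.2 in the pls4 libraries. PSY1 made up 90.8% to 92.7% of that sum in wild type and 72.1% and 74.9% in pls4. PSY2 made up 6.80% ± 0.86 (SD, n = 3) in wild type and 23.6% and 20.5% in pls4. The share of PSY3 went from 1.56% ± 0.24 (SD, n = 3) to 4.44% ± 0.29 (SD, n = 2). The log2 ratio of PSY1 to PSY2 within a library went from 3.68 ± 0.18 (SD, n = 3) to 1.69 ± 0.16 (SD, n = 2), a difference of -1.99. The exact permutation test over libraries, two-sided, gave p = 0.2, the smallest value that 3 against 2 libraries allow. This ratio was 1 of 4 compared, and no adjustment could bring any of them under 0.05.

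**Figure D2:**
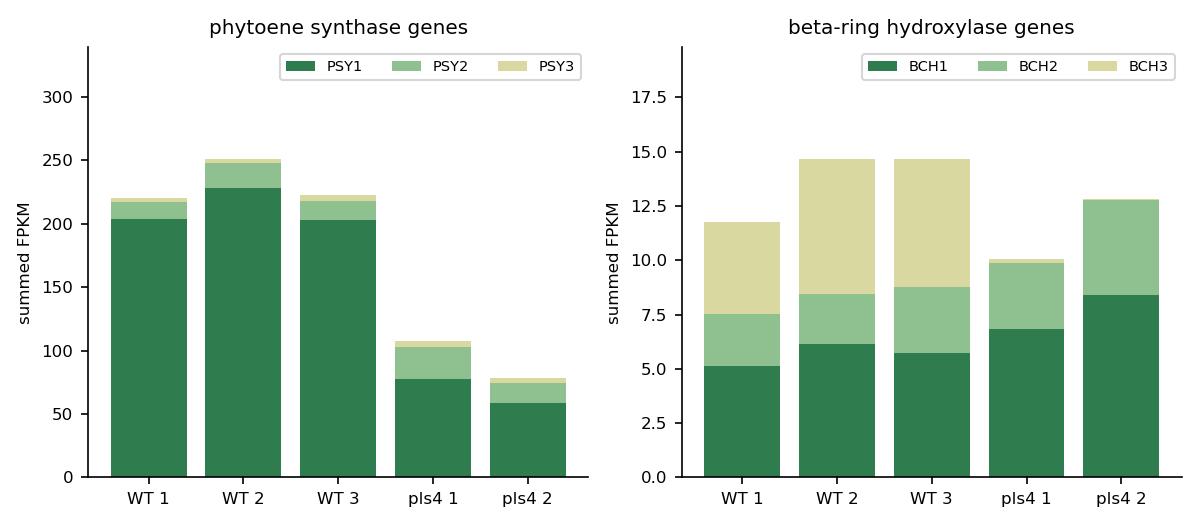
Summed FPKM (vertical axes) of the phytoene synthase genes PSY1, PSY2 and PSY3 (left) and of the beta-ring hydroxylase genes BCH1, BCH2 and BCH3 (right) in each library, stacked by gene. The phytoene synthase sum is 107 or less in pls4 against 220 or more in wild type, and BCH3, at 4.20 to 6.22 FPKM in wild type, is at 0.22 and 0.04 in pls4.

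The desaturases differed from each other. PDS, which acts first on phytoene, stood at 92.1, 94.6 and 94.8 FPKM in wild type and at 104 and 95.1 in pls4. Both pls4 libraries lay above all wild type libraries, pls4 replicate 2 only just, and the log2 fold change of 0.085 ± 0.078 (SE; limma, adjusted p = 0.389; 95% confidence interval -0.098 to 0.27) was not called. Under median ratio scaling the value was -0.096, and after quantile normalization it was -0.029, so PDS has no secure direction. ZDS, which acts on the product of PDS and of an isomerase, stood at 234, 254 and 244 FPKM in wild type and at 207 and 190 in pls4.

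Both pls4 values of ZDS lay below all wild type values. Its log2 fold change was -0.30 ± 0.08 (SE; limma, adjusted p = 0.0216). The call was lost with the replicate block (adjusted p = 0.207) and without wild type replicate 2 (adjusted p = 0.0723), wild type replicate 3 (adjusted p = 0.0823) or pls4 replicate 2 (adjusted p = 0.109), with fold changes between -0.48 and -0.23 over all alternatives. Within a library the log2 ratio of PDS to ZDS was -1.33, -1.41 and -1.36 in wild type and -0.98 and -0.99 in pls4. The ratio was thus higher in both pls4 libraries, by 0.38, with little spread within either group (exact permutation test, two-sided, p = 0.2, the smallest possible).

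The lycopene cyclases stood at nearly the same level in wild type and neither was called. LCYb, which closes the beta rings of both branches, was at 64.9, 68.9 and 72.8 FPKM in wild type and at 68.6 and 64.2 in pls4. Its log2 fold change was -0.052 ± 0.084 (SE; limma, adjusted p = 0.632), with a 95% confidence interval from -0.25 to 0.15. LCYe, which closes the epsilon ring of the lutein branch, was at 60.2, 76.3 and 72.4 FPKM in wild type and at 66.9 and 46.2 in pls4. The groups overlapped, since pls4 replicate 1 lay within the wild type range while pls4 replicate 2 lay below it. The fold change of LCYe was -0.31 ± 0.17 (SE; limma, adjusted p = 0.161; 95% confidence interval -0.71 to 0.086). Without pls4 replicate 1 it was -0.57 and passed the threshold (adjusted p = 0.0457), and without pls4 replicate 2 it was -0.050.

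The log2 ratio of LCYe to LCYb, a measure of the transcript balance between the branches, was -0.11, 0.14 and -0.0080 in the wild type libraries and -0.035 and -0.47 in the pls4 libraries. The difference of -0.26 was within the spread of the pls4 libraries (exact permutation test, two-sided, p = 0.4) and was -0.48 without pls4 replicate 1 and -0.044 without pls4 replicate 2.

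**Figure D3:**
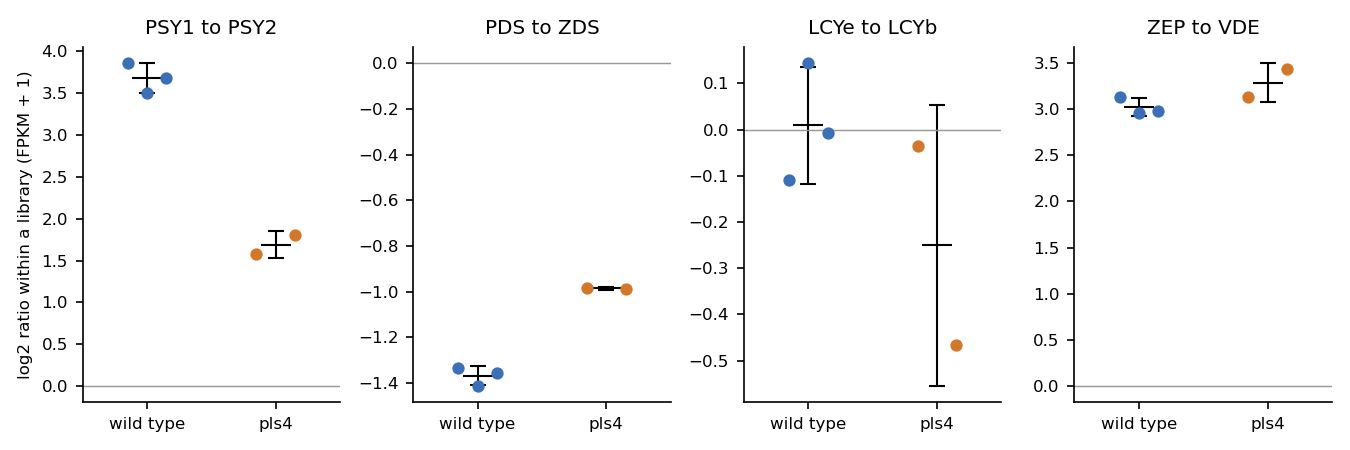
Log2 ratio of FPKM + 1 between 2 genes within each library (vertical axes) for 4 gene pairs, with wild type in blue (n = 3), pls4 in orange (n = 2), and the mean and SD in black. The groups are apart for PSY1 to PSY2 and for PDS to ZDS, and overlap for LCYe to LCYb and for ZEP to VDE.

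BCH1, a non-heme hydroxylase that turns beta-carotene into zeaxanthin, was the only one of the 10 genes called higher. It stood at 5.14, 6.13 and 5.74 FPKM in wild type and at 6.83 and 8.39 in pls4, with both pls4 libraries above all wild type libraries. The log2 fold change was 0.37 ± 0.12 (SE; limma, adjusted p = 0.0420). The call was lost whichever of the 5 libraries was left out, under median ratio scaling (0.21, adjusted p = 0.229), under quantile normalization, with the replicate block and with no filter. Of its listed paralogs, BCH2 (Os03g0125100) was not called, at 2.58 ± 0.39 FPKM (SD, n = 3) in wild type and 3.71 ± 0.97 (SD, n = 2) in pls4. BCH2 passed without pls4 replicate 1 (0.60, limma, adjusted p = 0.0491).

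BCH3 (Os10g0533500) was the hydroxylase with the large change. It stood at 4.20, 6.22 and 5.91 FPKM in wild type and at 0.22 and 0.04 in pls4, and both pls4 libraries were near 0. BCH3 passed the filter on low values only through its wild type libraries, so its adjusted p is not separate support for the difference. Its log2 fold change was -2.50 ± 0.17 (SE; limma, adjusted p = 3.30e-05), which understates the change of such a low gene and was -4.69 with a pseudocount of 0.1. BCH3 made up 35.8% to 42.4% of the summed FPKM of the 3 hydroxylase genes in wild type and 2.18% and 0.312% in pls4. The sum itself was 11.7, 14.7 and 14.7 FPKM in wild type and 10.1 and 12.8 in pls4, so that the groups overlapped. How reads were divided between such related genes when the authors counted them is not stated in the labels or headers.

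The xanthophyll cycle genes were both lower in pls4. VDE stood at 47.7, 52.8 and 51.5 FPKM in wild type and at 38.6 and 32.9 in pls4. Both pls4 values lay below all wild type values, and the log2 fold change was -0.49 ± 0.10 (SE; limma, adjusted p = 0.00485). The call held under all 13 alternatives, with fold changes between -0.67 and -0.38 and adjusted p-values up to 0.0417.

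ZEP was the most abundant of the 10 genes in both groups, at 426, 414 and 413 FPKM in wild type and 346 and 365 in pls4. Both pls4 values lay below all wild type values, and the wild type libraries lay close together. The log2 fold change was -0.23 ± 0.08 (SE; limma, adjusted p = 0.0428), the smallest of the called changes. The call was lost whichever of the 5 libraries was left out, after quantile normalization, with no filter, without the variance trend and with the replicate block (adjusted p = 0.326), while under median ratio scaling the value was -0.41 (adjusted p = 0.00448). The log2 ratio of ZEP to VDE was 3.13, 2.95 and 2.98 in wild type and 3.13 and 3.43 in pls4. The groups overlapped, and the difference of 0.26 (exact permutation test, two-sided, p = 0.4) was 0.41 without pls4 replicate 1 and 0.11 without pls4 replicate 2.

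**Figure D4:**
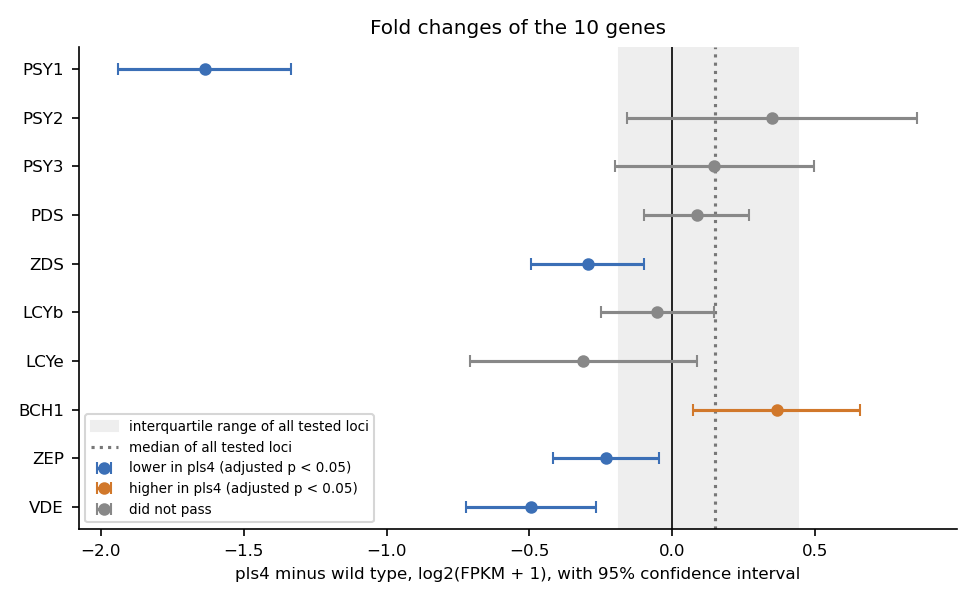
Difference of mean log2(FPKM + 1) between pls4 and wild type (horizontal axis; negative is lower in pls4), with its 95% confidence interval for the 10 genes; the dotted line marks the median of all tested loci (0.15) and the grey band their interquartile range (-0.19 to 0.44). PSY1, at -1.64, lies apart from the other 9 genes, which range from -0.49 to 0.37.

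The order of levels differed mainly in the place of PSY1. In wild type the order of mean FPKM was ZEP (418), ZDS (244), PSY1 (212), PDS (93.8), LCYe (69.6), LCYb (68.9), VDE (50.6), PSY2 (15.8), BCH1 (5.67) and PSY3 (3.60). The ranges of neighbours in this order overlapped only for LCYe and LCYb. In pls4 PSY1 (68.0) lay below PDS (99.7), and its range overlapped that of LCYb (66.4), which in turn overlapped that of LCYe (56.6). LCYe and LCYb, whose ranges overlapped in both groups, also changed places. The other genes kept their order, and their ranges did not overlap those of their neighbours in pls4 (n = 2).

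For these genes the pls4 libraries mostly differed from each other more than the wild type libraries did. The SD relative to the mean was larger in pls4 than in wild type for 9 of the 10 genes, LCYb being the exception, and reached 32.0% for PSY2 and 25.9% for LCYe. In pls4 replicate 1, 8 of the 10 genes were higher than in pls4 replicate 2, and ZEP and BCH1 were lower. Within wild type, 9 of the 10 genes were higher in replicate 2 than in replicate 1, and ZEP was lower. For PSY3 the relative SD was nearly equal, at 15.9% in pls4 and 15.7% in wild type. An SD from 2 libraries is imprecise. The shares of all tested loci with these patterns were not computed, so they are not read as traits of these genes.

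Genes of the same pathway that are not among the 10 were taken from published symbols and identifiers. Of 10 further genes of carotenoid synthesis, 5 were called lower, 3 higher and 2 did not pass, with a median fold change of -0.17; of all tested loci 18.5% were called lower and 33.4% higher. CYP97C2 (Os10g0546600), the cytochrome P450 that hydroxylates the epsilon ring on the way to lutein, stood at 33.0, 41.7 and 37.5 FPKM in wild type and at 14.8 and 9.72 in pls4. Its log2 fold change of -1.56 ± 0.17 (SE; limma, adjusted p = 0.000355) was, among these further genes, next in size to that of BCH3. CRTISO (Os11g0572700), the isomerase that yields lycopene, fell from 40.4 to 24.4 mean FPKM, with 40.1, 40.8 and 40.2 in the wild type libraries and 27.2 and 21.6 in the pls4 libraries (-0.71 ± 0.11, SE; limma, adjusted p = 0.00144).

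OR (Os02g0651300), the ORANGE protein that stabilizes phytoene synthase, stood at 355, 300.2 and 353 FPKM in wild type and at 167 and 216 in pls4 (-0.82 ± 0.13, SE; limma, adjusted p = 0.00219). PTOX (Os04g0668900), the plastid terminal oxidase that takes up electrons from the desaturase reactions, was higher, at 14.8, 12.6 and 12.6 FPKM in wild type and 23.5 and 22.8 in pls4 (0.76 ± 0.10, SE; limma, adjusted p = 0.000777). For CYP97C2, CRTISO, OR, PTOX and BCH3 the call held under all 13 alternatives. CYP97B4 (Os02g0173100), another P450 of that family, changed by -0.33 ± 0.08 (SE), a call lost in the blocked fit and when wild type replicate 2 or pls4 replicate 2 was left out.

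ZISO (Os12g0405200), the isomerase between PDS and ZDS, changed by 0.26 ± 0.07 (SE) and ABA4 (Os01g0128300), which acts in neoxanthin formation, by 0.52 ± 0.16 (SE). Both calls were lost under median ratio scaling (0.083 and 0.36), under quantile normalization and in the blocked fit, and that of ABA4 also with no filter. They were also lost when wild type replicate 2, wild type replicate 3 or any pls4 library was left out. Under either scaling, 1 of the 10 further genes was called higher. Over all loci, 4208 were called higher under median ratio scaling and 4800 under quantile normalization, against 6566 without either scaling. CYP97A4 (Os02g0817900), a P450 that hydroxylates beta rings, stood at 55.4 ± 3.3 FPKM (SD, n = 3) in wild type and 55.6 ± 11.1 (SD, n = 2) in pls4 and was not called.

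Upstream, in the plastid supply of isoprenoid precursors, 3 of 13 genes were called lower, 0 higher by limma (0 also at an unadjusted p under 0.05) and 10 did not pass, with a median fold change of -0.18. The share called lower is near the 18.5% of all tested loci. DXS1 (Os05g0408900), the first enzyme of the plastid pathway, stood at 129, 175 and 150.3 FPKM in wild type and at 90.8 and 59.8 in pls4 (-1.02 ± 0.19, SE; limma, adjusted p = 0.00399). HDR (Os03g0731900), its last enzyme, changed by -0.86 ± 0.12 (SE) and the isomerase IPPI1 (Os07g0546600) by -0.83 ± 0.08 (SE). Under median ratio scaling or quantile normalization 7 of the 13 were called lower, and 5 were without wild type replicate 1. Over all loci, 4895 were called lower under median ratio scaling and 4262 under quantile normalization, against 3642 without either scaling. Without wild type replicate 1 that number was 3479. The geranylgeranyl diphosphate synthase GGPPS1 (Os07g0580900), which makes the substrate of phytoene synthase, stood at 39.1, 63.5 and 50.5 FPKM in wild type and at 35.8 and 37.3 in pls4. Its fold change of -0.44 ± 0.18 (SE) was not called (limma, adjusted p = 0.0778) but passed under both scalings and without wild type replicate 1.

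**Figure D5:**
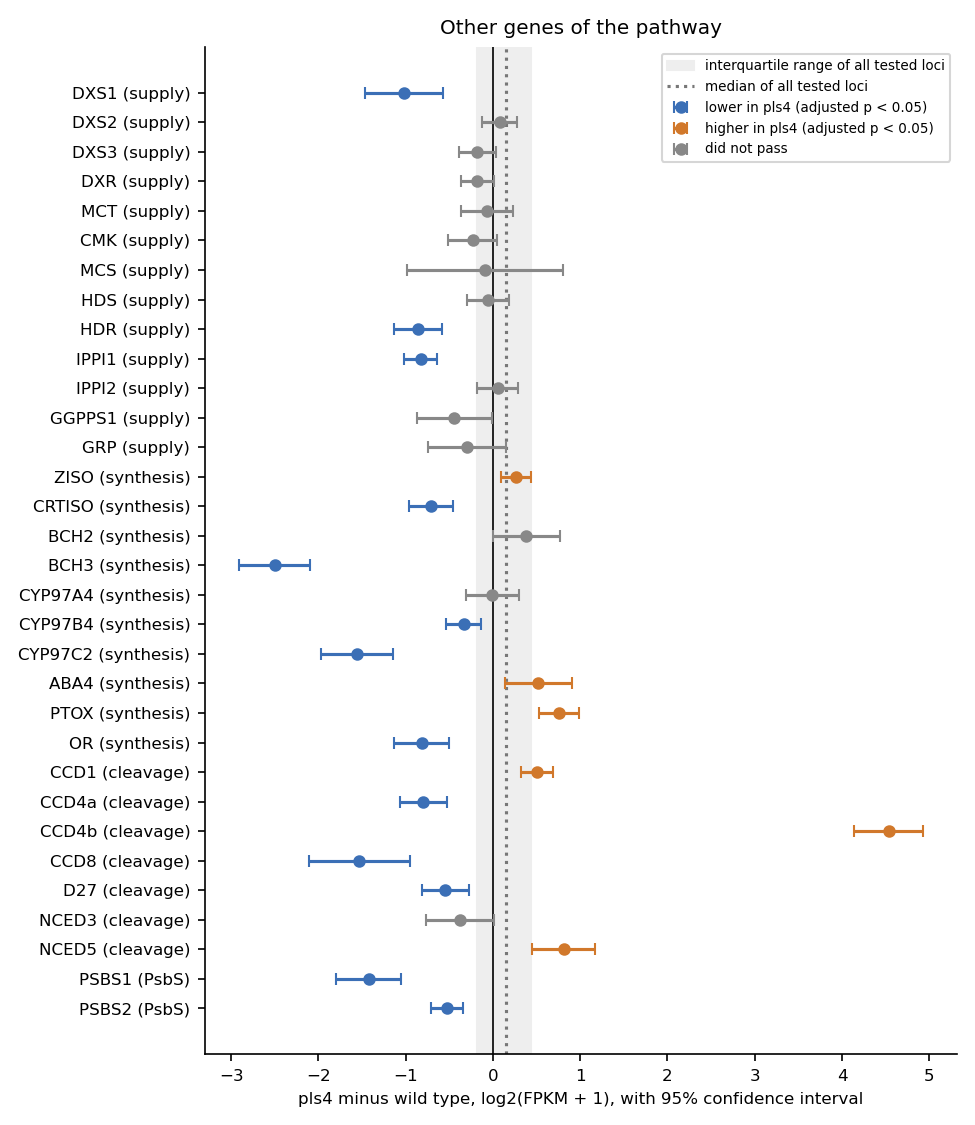
Log2 fold change, pls4 minus wild type (horizontal axis), with its 95% confidence interval for the tested genes of isoprenoid supply, further carotenoid synthesis, carotenoid cleavage and PsbS. BCH3 (-2.50), CYP97C2 (-1.56), CCD8 (-1.53), PSBS1 (-1.42) and DXS1 (-1.02) are the called genes at -1 or below, and CCD4b is at 4.53.

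Downstream, among genes that cleave carotenoids, 7 of 9 were tested, of which 3 were called higher, 3 lower and 1 did not pass, against 33.4% higher and 18.5% lower among all tested loci. CCD4b (Os12g0435200), a carotenoid cleavage dioxygenase, was listed at 0, 0 and 0.03 FPKM in wild type and at 27.1 and 18.4 in pls4 (4.53 ± 0.17, SE; limma, adjusted p = 1.34e-06). Its relative CCD4a (Os02g0704000) went the other way, from 839, 715 and 786 FPKM to 410.5 and 489 (-0.80 ± 0.12, SE; limma, adjusted p = 0.00124). CCD8 (Os01g0746400), which acts in strigolactone synthesis, stood at 4.72, 2.46 and 2.68 FPKM in wild type and at 0.24 and 0.68 in pls4 (-1.53 ± 0.24, SE; limma, adjusted p = 0.00194). CCD1 (Os12g0640600) was also called higher, from a mean of 213 FPKM in wild type to 302 in pls4 (0.50 ± 0.08, SE, limma, adjusted p = 0.00173). Its call was lost in the blocked fit. D27 (Os11g0587000) was also called lower (-0.55 ± 0.11, SE, limma, adjusted p = 0.00634). The groups did not overlap for any of the 7 tested genes, as for 69.9% of all tested loci. The size for CCD4b and CCD8 depends on the pseudocount, being 7.69 and -2.66 with a pseudocount of 0.1. CCD4b passed the filter on low values only through its pls4 libraries, and CCD8 only through its wild type libraries. Their adjusted p-values are therefore not separate support for the difference.

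Of the dioxygenases that commit epoxycarotenoids to abscisic acid, NCED5 (Os12g0617400) was called higher, from 4.71 ± 0.74 FPKM (SD, n = 3) to 9.02 ± 1.62 (SD, n = 2), a call lost without pls4 replicate 2 (0.64, limma, adjusted p = 0.0601). NCED3 (Os03g0645900) did not pass, at 1.45 ± 0.28 and 0.895 ± 0.361 FPKM (SD, n = 3 and n = 2).

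PsbS is the photosystem II protein that acts with zeaxanthin in the dissipation of light energy. Both of its genes were called lower, as were 18.5% of all tested loci. PSBS1 (Os01g0869800) stood at 1829, 2209 and 2279 FPKM in wild type and at 901 and 678 in pls4 (-1.42 ± 0.16, SE; limma, adjusted p = 0.000353). PSBS2 (Os04g0690800) changed by -0.53 ± 0.08 (SE). Both calls held under all 13 alternatives.

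Markers of cell types also differed between the groups, not all in the same direction. All 3 mesophyll markers (RBCS2, RCA and Lhcb1), which are the defining markers of the labelled cell type, were abundant but lower in pls4, with a summed FPKM of 21089 to 27919 in wild type and 9822 to 12296 in pls4. After quantile normalization RBCS2 and Lhcb1 both stood at -0.43 and were not called, and the call of RBCS2 was also lost with no filter, in the blocked fit and without pls4 replicate 2 (-0.98). All 4 markers of secondary walls and vascular tissue (CESA4, CESA7, CESA9 and BC1) were higher, with a summed FPKM of 2.40 to 4.19 in wild type and 11.3 to 23.7 in pls4; the call of BC1 was lost without pls4 replicate 1 (0.65). Of the 3 markers of dividing cells, CDKB1;1 was higher, MCM2 lower and PCNA not called, with a summed FPKM of 24.1 to 25.4 and 28.4 to 28.6. No defining marker was listed at 0 in any library. CESA7 and CESA9 passed the filter on low values only through pls4, and MCM2 only through wild type. Of all tested loci, 18.5% were called lower and 33.4% higher. In bulk leaf RNA fewer cells of a type and less RNA per cell cannot be told apart, and the part of these markers in the changes of the carotenoid genes was not tested.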

How the data were processed

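The deposited values, 1 file per library, are called FPKM in the file headers and RPKM in the file names. The headers were followed. Per the submitters' processing notes the authors used TopHat2 2.1.1 and the build IRGSP-1.0; the counting tool, annotation, strand setting and scaling between libraries are not stated in the labels, notes or headers used. FPKM are relative, so a rise of abundant transcripts lowers all other values. No 2 libraries held equal values at more than 0.276% of loci above an FPKM of 5, so each counted as a library.

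The comparison was fitted here in R 4.3.3 by limma 3.58.1, taking log2(FPKM + 1) and letting the variance follow expression, over the 19637 loci that reached an FPKM of 1 in 2 or more libraries. On simulated data of that size, 100 loci were changed by 1 on the log2 scale and 100 by 2. Of these changes 100% were recovered, and 3.85% of calls were false. Smaller changes were not simulated, so recovery of changes such as those of ZDS (-0.30), BCH1 (0.37), ZEP (-0.23) and VDE (-0.49) was not tested. The changed loci were also far fewer than the 52.0% called in the deposited data, so the false share need not hold there. All loci entered the fit, and only listed genes are printed. Outside the 10 they are all of carotenoid synthesis, called genes of at least 1 in size, and others chosen after their values were seen. Those others are HDR, IPPI1, GGPPS1, CCD1, CCD4a, D27, NCED3, NCED5 and PSBS2. Where an alternative changed their sign, DXS2, IPPI2, MCT, MCS and HDS are also printed. Cell type markers are given by their calls and summed FPKM.

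The members and lists were chosen with earlier results of these data known. Symbols were checked against chromosome and gene order in a RefSeq table (assembly ASM3414082v1, tolerance 0.05): 5 of the 10 agreed and 5 (ZDS, LCYb, LCYe, BCH1, VDE) have no name there, as have 27 of the other 44. Those names rest on published pairs. Coordinates and sequences were not used here.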

Additional observations from a re-analysis of the deposited data

How the results depend on the processing

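Over the 10 genes and 13 alternatives, 104 values kept direction and side of the threshold, 22 lost a call, 1 gained one and 2 changed sign. PDS changed sign under median ratio scaling (-0.096) and quantile normalization (-0.029). Among the other genes DXS2 (-0.096 and -0.088) and IPPI2 (-0.119 and -0.113) did so under the same scalings. Leaving out 1 library gave ranges across 0 for CYP97A4 (-0.21 to 0.20), MCT (-0.16 to 0.040), MCS (-0.76 to 0.57), HDS (-0.17 to 0.060) and IPPI2 (-0.013 to 0.10), none of them called. The number of the 10 genes called higher went from 1 to 0 with no filter, under median ratio scaling, under quantile normalization, and in every fit without 1 library (0 to 0); the number called lower ranged from 2 to 4 in the latter. Of the further synthesis genes 1 was called higher under median ratio scaling and 1 under quantile normalization, and 1 to 3 without 1 library. Of the isoprenoid supply genes 7 were called lower under median ratio scaling and 7 under quantile normalization, and 3 to 5 without 1 library. With a filter of 5 FPKM 1 cleavage gene was called lower, since fewer of them were tested. The log2 ratio difference ranged from -0.48 to -0.044 for LCYe to LCYb and from 0.11 to 0.41 for ZEP to VDE without 1 library. Over all loci, 4208 were called higher and 4895 lower under median ratio scaling (46.2% higher, against 64.3% of 6566 and 3642), 53.0% were higher under quantile normalization, and without 1 library 3986 to 6780 were higher and 2667 to 3479 lower. Except for the filter, the cause was not tested.

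Replicate numbers 1 and 2 are shared by the groups, but the labels do not say that they pair plants. Deviations of same-numbered libraries correlated at -0.095 and -0.14. Deviations of 2 pls4 libraries mirror each other, so libraries with different numbers gave the same sizes with the sign turned (0.095 and 0.14). These values cannot decide whether the libraries are paired. With the replicate block on the 4 libraries numbered 1 and 2, 0 of the 10 genes were called higher and 2 lower, and 1 of the further synthesis genes higher. Over all loci that fit called 4397 higher and 2881 lower, against 6566 and 3642 with all libraries and no block, so calls were lost there too. With unknown depth, counting error could not be given, and values under an FPKM of 1, such as those of BCH3 and CCD8 in pls4, depend most on the pseudocount.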
